A study of Bos taurus with 30 samples.

Results

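The nuclear-encoded subunits of oxidative phosphorylation were followed across bovine endometrium in 3 kinds of pregnancy. Members were all probes whose gene symbol in the platform annotation names a subunit of a respiratory complex: symbols starting with NDUFA, NDUFB, NDUFC, NDUFS or NDUFV and a number, the SDH subunits A to D, UQCR symbols, CYC1, COX symbols of the subunit families IV to VIII, and ATP5 symbols. This gave 73 genes on 75 probes, of 8073 named genes and 13824 probes in all. Complex I had 35 probes, complex II had 4, complex III had 11 for 9 genes, complex IV had 12 and complex V had 13. The symbols also take in NDUFA4, which is now known as a complex IV subunit, its paralog NDUFA4L2, the supercomplex factor COX7A2L and ATP5IF1, an inhibitor of ATP synthase. They were counted under the complex that their symbol gives.

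Each of 30 arrays set caruncle, the gland-free area to which the placenta attaches, against the gland-bearing intercaruncular endometrium of the same animal. The pregnancies came from artificial insemination (AI) in 5 animals. Another 5 carried an in vitro fertilised embryo after transfer (IVF-ET), and 5 carried an embryo from somatic cell nuclear transfer (SCNT), the procedure used for cloning. Breed, age and day of pregnancy are not in the labels used here, and no group was untreated or not pregnant. Every animal had 2 arrays, and IVF-ET replicate 3 was left out because both of its arrays carried the same dye orientation, which left 14 animals.

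Oxidative phosphorylation takes electrons from NADH at complex I and from succinate at complex II. They pass through complex III and cytochrome c to complex IV, which reduces oxygen, and complex V (ATP synthase) uses the resulting proton gradient to make ATP. Most subunits are encoded in the nucleus, translated in the cytosol and imported, so their mRNAs are measured here without the subunits encoded by mitochondrial DNA. Epithelium and stroma of the endometrium both use this pathway, and RNA of whole tissue mixes them.

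A value is the log2 ratio between the tissues of an animal, with 0 for equal signal. Which tissue lies on the positive side is not settled, so values are given as the positive or negative side of the deposited ratio. All 75 probes had values in every one of the 14 animals and all entered the test, with 13818 probes tested in total. A probe was called at an adjusted p under 0.05 by limma with Benjamini-Hochberg adjustment over all probes tested. In bulk tissue, fewer cells of a type and less RNA per cell cannot be told apart.

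Several features of the arrays touch every result below. Duplicate spots of a subunit differed by a median SD of 0.132 within an array (0.165 over all probes). The 2 arrays of an animal agreed poorly over the subunits, with a median correlation of 0.06 over 14 animals, so a single subunit in a single animal is loosely measured. SCNT replicate 5 stood apart. The arrays of this animal, which had exchanged dyes, correlated at 0.86 over the subunits and at 0.79 over all probes. Its values had an SD of 0.96 over the subunits, against 0.15 to 0.28 in the other animals. Over all probes the SD was 0.70, against 0.22 to 0.32 in the others, so the animal stood apart beyond the subunits too. The main results are given with and without this animal. Over all probes, the correlation of AI means was -0.27 with IVF-ET means and -0.29 with SCNT means, and that of IVF-ET with SCNT was 0.46. Results that use AI are therefore given as deposited and with the AI sign turned. The subunits showed less of this opposition. Over the 75 probes AI correlated at 0.10 with IVF-ET and at -0.21 with SCNT, or -0.08 without SCNT replicate 5.

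Subunits of all 5 complexes lay mostly on the negative side in IVF-ET and SCNT animals, by a small amount. In the mean of both groups, each weighted alike and called the transferred mean below, 62 of 75 subunit probes (82.7%) were negative with a median of -0.15, against 50.8% negative and a median of 0.00 over all probes tested. The medians were -0.16 for complex I, -0.21 for complex II, -0.17 for complex III, -0.14 for complex IV and -0.11 for complex V. Without SCNT replicate 5 they were -0.09, -0.14, -0.14, -0.09 and -0.15 in the same order, so the sizes and the order of the complexes rested in part on that animal. In AI animals as deposited, 40 probes were negative and 35 positive, with a median of 0.00. The AI medians of complexes I to V were 0.00, 0.10, -0.11, 0.00 and 0.00, so complex III leaned to the negative side there too. The median standard error of a single subunit's transferred mean was 0.09.

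**Figure D1:**
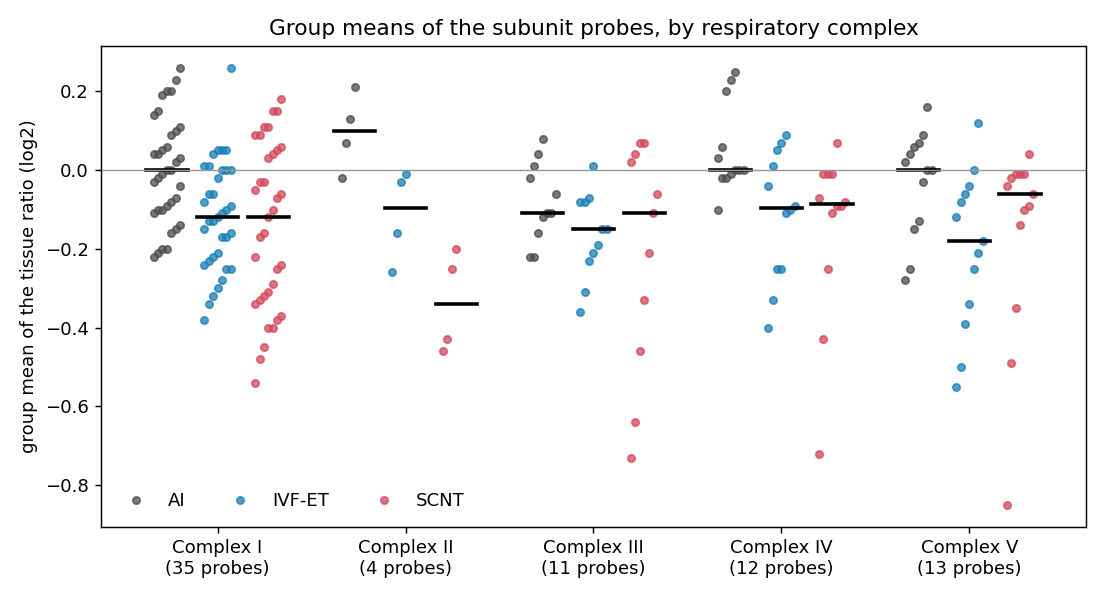
Each point is the group mean (log2 ratio between the tissues) of 1 subunit probe in AI, IVF-ET or SCNT animals, arranged by complex, and black bars are medians over probes. The bars of IVF-ET and SCNT lie below 0 in every complex, and the lowest points, down to -0.85, belong to the SCNT group.

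The negative median recurred from animal to animal. In IVF-ET replicates 1, 2, 4 and 5 the median over the 75 probes was -0.22, -0.19, -0.03 and -0.09. In SCNT replicates 1 to 5 it was -0.12, -0.27, -0.07, -0.02 and -0.04. It was thus below 0 in 9 of 9 animals, and on 17 of their 18 arrays, but within 0.1 of 0 in 5 of them. In AI replicates 1 to 5 it was -0.13, -0.02, 0.10, 0.07 and -0.03, on both sides of 0. The AI range overlapped that of the IVF-ET and SCNT animals. Read as dye ratios instead of tissue ratios, the deposited values gave a median of 0.00 for the transferred mean, with 37 probes negative and 38 positive, so the shift holds for the first reading and not for the other.

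**Figure D2:**
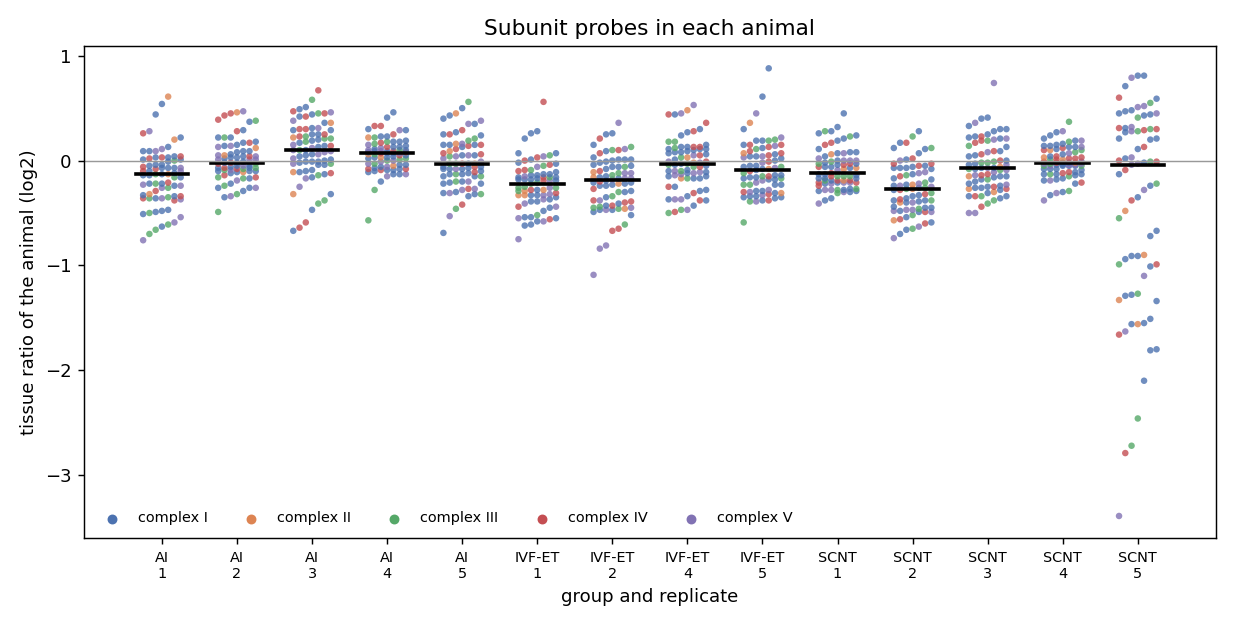
Each point is 1 subunit probe in 1 animal (log2 ratio between the tissues), coloured by complex, and black bars are the medians over 75 probes. The 9 medians of IVF-ET and SCNT animals lie below 0, and SCNT replicate 5 spreads from -3.39 to 0.81.

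Few subunits passed the threshold singly. In the transferred mean 1 of 75 probes was called, ATP5F1C, against 3.37% of all probes. None was called in SCNT, where 1.82% of all probes were, nor in AI (0.0%), in IVF-ET (0.0%) or over the mean of the 3 groups (0.0%). At an unadjusted p under 0.05 on the negative side there were 25 subunit probes in the transferred mean (33.3%, against 8.28% of all probes), 20 in SCNT (26.7%, against 8.73%) and 12 in IVF-ET (16.0%, against 3.96%). On the positive side there was 1 in the transferred mean (against 6.81%), 0 in SCNT (against 6.05%) and 1 in IVF-ET (against 3.99%), which was NDUFB1 in both cases. In AI there were 3 negative (against 2.16%) and 2 positive (against 2.21%). With all animals kept, the share called at the adjusted threshold was below that of all probes in the transferred mean and in SCNT, but these counts are small. In the transferred mean it was above that share without SCNT replicate 5, at 9 of 75 (12.0%, against 5.38%). It was also above with arrays scaled to 1 spread, at 6 of 75 (against 4.56%). At the unadjusted threshold the share was above that of all probes on the negative side.

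These counts moved with SCNT replicate 5 and with the reading of the ratios. Without that animal the negative probes numbered 29 in the transferred mean (38.7%, against 9.05% of all probes), 9 in SCNT (12.0%, against 6.82%), 21 in IVF-ET (28.0%, against 5.45%) and 6 in AI (against 3.26%). The order of SCNT and IVF-ET was then the other way round. On the positive side each of the transferred mean (against 8.11%), SCNT (against 5.47%) and IVF-ET (against 5.62%) had 1. The IVF-ET and AI values themselves were the same, since the animal enters their test through the spread that the groups share. Read as dye ratios, 6 subunit probes were negative at this level in the transferred mean (against 10.5%), 6 in SCNT (against 3.58%) and 3 in IVF-ET (against 6.51%).

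Other housekeeping machinery lay on the same side. Of 59 probes for cytosolic ribosomal proteins, 88.1% were negative in the transferred mean, with a median of -0.19. Of 66 for mitochondrial ribosomal proteins 74.2% were negative (median -0.06), and of 42 for proteasome subunits 76.2% (median -0.09). A lean to the negative side was therefore also measured outside the respiratory chain. It recurred from animal to animal there too. The mitochondrial ribosomal median was negative in every IVF-ET and SCNT animal, from -0.16 to -0.02. The cytosolic ribosomal and proteasome medians were negative in all of them but SCNT replicate 3 (0.05 and 0.01). Without SCNT replicate 5 the medians of the cytosolic ribosomal, mitochondrial ribosomal and proteasome lists were -0.12, -0.05 and -0.05. On the dye reading, 19 of the 59 cytosolic ribosomal probes were negative (median 0.05) and 24 of the 42 proteasome probes (median -0.02). The mitochondrial ribosomal list kept 48 of 66 negative (median -0.06). The difference between these lists and the subunits was not tested.

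Complex V, the ATP synthase, held the called subunit. ATP5F1C is the gamma subunit, the shaft that turns inside the catalytic head. It lay at -0.75, -0.81, -0.37 and -0.28 in IVF-ET replicates 1, 2, 4 and 5, and at -0.41, -0.24, -0.11, 0.13 and -1.10 in SCNT replicates 1 to 5. In AI replicates 1 to 5 it lay at -0.76, -0.26, -0.25, -0.01 and 0.04, so the groups overlapped as deposited. With the AI sign turned these were 0.76, 0.26, 0.25, 0.01 and -0.04, above every IVF-ET animal but overlapping SCNT. The transferred mean minus AI of ATP5F1C was then -0.69 ± 0.18 (limma adjusted p = 0.938). Its transferred mean was -0.45 ± 0.11 (standard error from limma, as for every ± below, n = 9), which is 1.36-fold, and 8 of 9 animals were negative (limma adjusted p = 0.0348). Without SCNT replicate 5 it was -0.35 ± 0.09 (limma adjusted p = 0.0261). Leaving out any 1 of IVF-ET replicates 1, 2, 4 and 5 or SCNT replicates 1 and 2 ended the call, with values from -0.49 to -0.41 (limma adjusted p from 0.0533 to 0.14), and so did keeping IVF-ET replicate 3 with its first array turned (0.0721) or its second (0.201). Read as dye ratios, the transferred mean was 0.01 (limma adjusted p = 0.944), so the value itself held for the reading as tissue ratios and not for the other.

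The other measured parts of the catalytic head lay nearer to 0 or varied more. ATP5F1B, the beta subunit that carries the catalytic sites, had a transferred mean of -0.07 ± 0.09, and ATP5E, the epsilon subunit, of -0.14 ± 0.08 (limma adjusted p = 0.809 and 0.486). ATP5F1D, the delta subunit, lay between -0.49 and -0.04 in SCNT replicates 1 to 4 and at -3.39 in SCNT replicate 5. Its SCNT mean of -0.85 ± 0.34 became -0.21 without that animal. Its 4 IVF-ET values, from -0.38 to 0.53, lay on both sides of 0.

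In the membrane part of complex V, ATP5MC1 and ATP5MC3 are separate genes for the same mature ring protein, so their cDNA probes may share signal, which was not tested. ATP5MC1 lay at -0.41, -1.09, -0.10 and -0.39 in IVF-ET replicates 1, 2, 4 and 5, and at 0.00, -0.11, -0.50, -0.19 and -1.63 in SCNT replicates 1 to 5. Its transferred mean of -0.49 ± 0.15 was the lowest of all 75 probes and did not pass the threshold (limma adjusted p = 0.0868). Without SCNT replicate 5 it was -0.35 ± 0.10 (limma adjusted p = 0.0595), level with ATP5F1C. ATP5MC3 had -0.24 ± 0.11 (limma adjusted p = 0.337). ATP5PO, which couples the head to the stator stalk, was between -0.45 and -0.26 in IVF-ET and between -0.47 and -0.14 in SCNT replicates 1 to 4, but at 0.51 in SCNT replicate 5. Without that animal its transferred mean was -0.32 ± 0.07 and passed (limma adjusted p = 0.0107), while with it the value was -0.24 ± 0.09 (0.176). ATP5PO was also among the 3 negative probes of AI at an unadjusted p under 0.05, at -0.28 ± 0.12 (limma adjusted p = 1.0). With the AI sign turned its transferred mean minus AI was -0.52 ± 0.15 (limma adjusted p = 0.938). The inhibitor ATP5IF1 had a transferred mean of -0.11 ± 0.12, with values from -0.74 in SCNT replicate 2 to 0.79 in SCNT replicate 5, and of -0.21 ± 0.10 without the latter.

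Complex I, the NADH dehydrogenase, had 27 of 35 probes on the negative side in the transferred mean and 0 called. Its 6 measured core subunits, most of which carry the flavin or iron-sulfur centres of the complex, were all negative there. They lay between -0.27 and -0.19, with a median of -0.23. This narrow range rested on SCNT replicate 5, and without it the 6 lay between -0.25 and -0.01, with a median of -0.15. NDUFS3, a core subunit of the arm that extends into the matrix, came nearest to a call. It lay at -0.54, -0.30, 0.06 and -0.06 in IVF-ET replicates 1, 2, 4 and 5, and at -0.29, -0.45, -0.16, -0.11 and -0.67 in SCNT replicates 1 to 5. In AI replicates 1 to 5 it was 0.03, 0.09, -0.01, 0.18 and 0.27. All 5 SCNT values were below all 5 AI values as deposited, and the IVF-ET values overlapped both. The same separation held for NDUFA9 and NDUFB9, 3 of 75 members (4.0%, against 1.65% of all probes), and none had every SCNT animal above every AI animal (against 1.19%). With the AI sign turned the AI values of NDUFS3 were -0.03, -0.09, 0.01, -0.18 and -0.27 and overlapped SCNT, its transferred mean minus AI was -0.16 ± 0.12 (limma adjusted p = 0.943), and 0 members had SCNT wholly below AI (against 0.427%) or above it (against 0.405%). The transferred mean was -0.27 ± 0.07 (limma adjusted p = 0.0502), and -0.23 ± 0.07 without SCNT replicate 5 (0.0649).

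The remaining core subunits varied more. NDUFV1, which binds NADH and the flavin, had a transferred mean of -0.27 ± 0.13, and its iron-sulfur partner NDUFV2 of -0.24 ± 0.08 (limma adjusted p = 0.331 and 0.155). Without SCNT replicate 5, at -1.28 and -0.91, they were -0.15 ± 0.10 and -0.15 ± 0.06 (limma adjusted p = 0.484 and 0.174). NDUFS7 and NDUFS8, which carry iron-sulfur centres on the way to ubiquinone, had -0.22 ± 0.17 and -0.22 ± 0.14. Both rested on SCNT replicate 5, at -2.10 and -1.56, and were -0.01 ± 0.08 and -0.07 ± 0.08 without it. NDUFS1, the largest subunit of the electron input part, went the other way in that animal (0.44), and its transferred mean of -0.19 ± 0.08 (limma adjusted p = 0.266) became -0.25 ± 0.07 without it (0.0464).

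NDUFA10 and NDUFB9 were the only members negative in all 9 IVF-ET and SCNT animals, 2 of 75 (2.67%, against 2.11% of all probes). None was positive in all 9 (against 2.21%). Both encode accessory subunits, which surround the core and do not carry its redox centres. NDUFA10 lay at -0.48, -0.21, -0.15 and -0.14 in IVF-ET replicates 1, 2, 4 and 5, and at -0.29, -0.70, -0.04, -0.13 and -1.55 in SCNT replicates 1 to 5. Its AI values, from -0.24 to 0.10, overlapped these. Its transferred mean was -0.39 ± 0.12 (limma adjusted p = 0.0881), and -0.27 ± 0.07 without SCNT replicate 5 (0.0439).

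NDUFB9 sits in the membrane arm of complex I. In AI replicates 1 to 5 as deposited it lay at 0.09, 0.04, 0.44, 0.46 and 0.15. In IVF-ET replicates 1, 2, 4 and 5 it lay at -0.54, -0.24, -0.38 and -0.35, and in SCNT replicates 1 to 5 at -0.06, -0.59, -0.07, -0.02 and -1.51. It was the only member with every IVF-ET and SCNT animal below every AI animal, 1 of 75 (1.33%, against 0.492% of all probes), and none lay above in every animal (against 0.282%). The gap between the nearest animals was small, 0.04 against -0.02. Groups lay wholly on opposite sides of 0 for NDUFB9 and COX6C in AI against IVF-ET (2.67%, against 0.688% of all probes), for NDUFB9 in AI against SCNT (1.33%, against 0.564%) and for no member in IVF-ET against SCNT (against 0.536%). The transferred mean was -0.41 ± 0.12 (limma adjusted p = 0.0838), and -0.28 ± 0.07 without SCNT replicate 5 (0.0349). With the AI sign turned, the AI animals lie on the same side and the difference from AI is -0.18 ± 0.20 (limma adjusted p = 0.952).

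**Figure D3:**
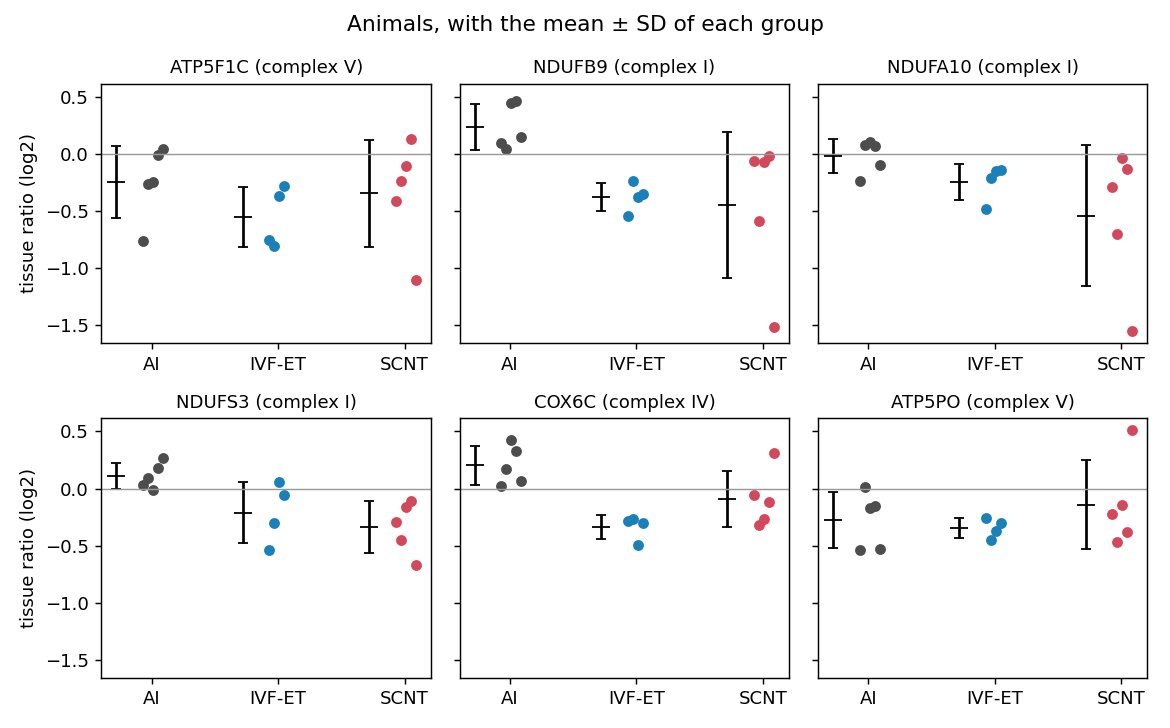
Points are animals (log2 ratio between the tissues), and black marks with bars are the mean ± SD of each group, for 6 subunits. NDUFB9 has all AI animals above 0 and all others below it, ATP5F1C has negative animals in every group, and the lone low or high SCNT point in ATP5F1C, NDUFB9, NDUFA10, COX6C and ATP5PO is SCNT replicate 5.

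Some accessory subunits of complex I lay on the positive side or changed side between groups. NDUFB1, a small membrane subunit, lay at 0.26, 0.01, 0.13 and 0.61 in IVF-ET replicates 1, 2, 4 and 5 and between -0.06 and 0.21 in SCNT. Its transferred mean of 0.16 ± 0.06 was the highest of all 75 probes (limma adjusted p = 0.237). NDUFA1, which anchors an early assembly step in the membrane, lay at -0.69 in AI replicate 5 and between -0.16 and 0.03 in the other AI animals, and its transferred mean was 0.07 ± 0.07. NDUFA8 had -0.20 ± 0.09 in AI and 0.02 ± 0.07 in the transferred mean. NDUFA2 was the only member negative in all 5 AI animals, 1 of 75 (1.33%, against 2.21% of all probes). Each of these had a limma adjusted p of 1.0 in AI.

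The supernumerary NDUFS4 and NDUFA12, which join complex I late in its assembly, had the same side in 8 of 9 animals. NDUFS4 lay between -0.45 and -0.28 in IVF-ET and between -0.45 and -0.13 in SCNT replicates 1 to 4, but at 0.48 in SCNT replicate 5. Its transferred mean was -0.22 ± 0.08 with that animal and -0.29 ± 0.06 without it (limma adjusted p = 0.169 and 0.0114). NDUFA12 had -0.18 ± 0.08 and -0.25 ± 0.06 (limma adjusted p = 0.241 and 0.0323).

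Complex II, succinate dehydrogenase, links the chain to the citric acid cycle, and all 4 of its subunits are nuclear-encoded and were measured. All 4 were negative in IVF-ET, in SCNT and in the transferred mean, and none was called. The flavoprotein SDHA lay at -0.19, -0.57, -0.30, 0.10 and -1.33 in SCNT replicates 1 to 5, with a mean of -0.46 ± 0.16 (limma adjusted p = 0.165), and at -0.24 without replicate 5. Its IVF-ET mean was -0.01 ± 0.18. The iron-sulfur subunit SDHB had a transferred mean of -0.34 ± 0.12 (limma adjusted p = 0.167) and -0.20 ± 0.07 without SCNT replicate 5 (0.097). The membrane anchors SDHC and SDHD had -0.14 ± 0.11 and -0.18 ± 0.07 (limma adjusted p = 0.654 and 0.187), and -0.06 ± 0.10 and -0.14 ± 0.07 without it. In SCNT replicate 5 the median of the complex was -1.11, the lowest of the 5 complexes in that animal.

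Complex III, the cytochrome bc1 complex, had 10 of 11 probes negative in the transferred mean and 0 called. In AI as deposited 8 of 11 were negative, with a median of -0.11. This was level with SCNT (7 of 11, median -0.11), while IVF-ET had 10 of 11 (median -0.15). CYC1, the cytochrome that hands electrons to cytochrome c, lay between -0.52 and -0.08 in SCNT replicates 1 to 4 and at -2.72 in replicate 5. Its SCNT mean of -0.73 ± 0.27 (limma adjusted p = 0.2) became -0.23 without replicate 5. UQCRC1, a core subunit on the matrix side, lay at -2.46 in SCNT replicate 5 against -0.34 to 0.18 in the other SCNT animals. UQCRB, the ubiquinone-binding protein, had means of -0.36 ± 0.13 in IVF-ET and 0.02 ± 0.11 in SCNT, a difference (SCNT minus IVF-ET) of 0.38 ± 0.17 that did not pass the threshold (limma adjusted p = 0.915). Without SCNT replicate 5, at 0.55, its SCNT mean was -0.11 ± 0.11 and the difference 0.25 ± 0.15. The hinge protein UQCRH had a transferred mean of -0.26 ± 0.10 (limma adjusted p = 0.212).

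The Rieske iron-sulfur protein UQCRFS1 was the only gene with several probes, and its 3 probes disagreed. The first had a transferred mean of 0.04 ± 0.09 and the second, of the same clone, 0.00 ± 0.09. The third, of another clone, had -0.34 ± 0.10, with 8 of 9 IVF-ET and SCNT animals negative (limma adjusted p = 0.0842). No single level can therefore be given for this gene.

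Complex IV, cytochrome c oxidase, had 9 of 12 probes negative in the transferred mean and 0 called. COX6C, a small regulatory subunit, lay at 0.02, 0.17, 0.42, 0.33 and 0.07 in AI replicates 1 to 5 as deposited. In IVF-ET replicates 1, 2, 4 and 5 it lay at -0.28, -0.27, -0.49 and -0.30, and in SCNT replicates 1 to 5 at -0.06, -0.32, -0.27, -0.12 and 0.31. AI and IVF-ET did not overlap, and SCNT replicate 5 lay among the AI animals. Every IVF-ET animal was below every AI animal for COX6C, NDUFB9, NDUFS4 and NDUFV2, 4 of 75 members (5.33%, against 1.85% of all probes), and above for none (against 1.49%). With the AI sign turned COX6C overlapped, and this held for 6 members (8.0%, against 0.811%): ATP5F1C, ATP5PO, NDUFA2, NDUFA10, NDUFA12 and NDUFS4. None lay above (against 0.666%). The transferred mean was -0.21 ± 0.07 (limma adjusted p = 0.116), and -0.26 ± 0.06 without SCNT replicate 5 (0.0189).

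Complex IV has subunits with tissue isoforms, whose values are given side by side. The difference between isoforms was not tested, and signal over background is not known for any of them. COX4I1, the general isoform, lay between -0.56 and 0.17 in SCNT replicates 1 to 4 and at -2.79 in replicate 5, while COX4I2, the isoform known from lung and from low oxygen, lay between -0.24 and 0.13 in all 5. COX7A2, the general isoform, had a transferred mean of -0.18 ± 0.08 and the muscle isoform COX7A1 of 0.03 ± 0.06 (limma adjusted p = 0.322 and 0.885). The muscle isoform COX6A2 had 0.25 ± 0.09 in AI and 0.01 ± 0.06 in the transferred mean. COX8A had a transferred mean of -0.15 ± 0.11, and of -0.05 ± 0.09 without SCNT replicate 5. COX7A2L, which takes part in joining complexes into supercomplexes, lay between -0.65 and -0.25 in IVF-ET, with a transferred mean of -0.24 ± 0.08 (limma adjusted p = 0.149), and of -0.29 ± 0.08 without SCNT replicate 5 (0.0428). COX5B had an SCNT mean of -0.43 ± 0.20 that became -0.13 without that animal.

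SCNT replicate 5 held the widest values of all animals. In it 20 of 75 probes lay below -1, against 8.0% of all probes in that animal, and in the other 13 animals 1 subunit value did. The low ones came from every complex: 10 probes of complex I, 2 of complex II, 3 of complex III, 2 of complex IV and 3 of complex V. ATP5F1D (-3.39), COX4I1 (-2.79), CYC1 (-2.72), UQCRC1 (-2.46) and NDUFS7 (-2.10) were the lowest. Others in the same complexes were on the positive side, with NDUFB5 and NDUFA5 at 0.81 and ATP5IF1 at 0.79. Neither side followed a complex as a whole apart from complex II, where all 4 probes were negative. Over the 75 probes its values correlated at 0.17 with the mean of SCNT replicates 1 to 4, the same as over all probes (0.17).

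**Figure D4:**
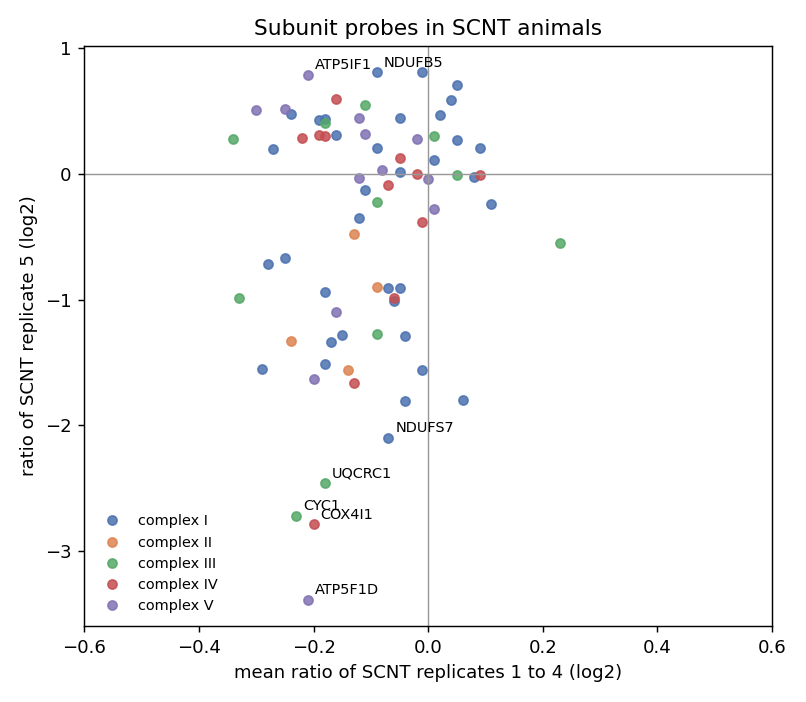
Each point is a subunit probe, with the mean of SCNT replicates 1 to 4 on the horizontal axis and SCNT replicate 5 on the vertical axis (both log2 ratios between the tissues, on different scales). The horizontal values stay between -0.34 and 0.23, while the vertical ones reach -3.39.

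Leaving out this animal changed single subunits and complexes. The median of the complex II means in SCNT was -0.34 with it and -0.13 without, and that of complex I -0.12 and -0.07, while that of complex V was -0.06 and -0.12. The transferred mean without it had 63 of 75 probes negative with a median of -0.12, and 9 probes were called instead of 1 (12.0%, against 5.38% of all probes). These were NDUFS4, NDUFA10, NDUFA12, NDUFB9 and NDUFS1 of complex I, COX6C and COX7A2L of complex IV, and ATP5F1C and ATP5PO of complex V, all on the negative side and between -0.35 and -0.25. In SCNT alone, 60 probes were negative without it and 0 were called. The subunit means of IVF-ET and SCNT correlated at 0.11 over the 75 probes with this animal and at 0.57 without it. Over all probes these correlations were 0.46 and 0.62, so the subunits did not exceed them. The 2 groups are different animals on different arrays. The dye effect taken off was the same for both, and it cancels in the mean of an animal's 2 arrays, which had exchanged dyes.

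SCNT and IVF-ET were not distinguished in any subunit. Of SCNT minus IVF-ET, 0 subunit probes passed (against 0.0% of all probes), with 35 negative, 40 positive and a median of 0.02. At an unadjusted p under 0.05 there was 1 on the negative side (1.33%, against 2.61%) and 1 on the positive side (1.33%, against 1.81%), NDUFA9 and UQCRB. NDUFA9, which lies near the ubiquinone site of complex I, was at -0.27, -0.36, -0.26, -0.22 and -0.72 in SCNT replicates 1 to 5 and at -0.37, -0.01, 0.24 and 0.04 in IVF-ET replicates 1, 2, 4 and 5. All 5 SCNT animals were negative and the groups overlapped. The SCNT mean of -0.37 ± 0.10 had the smallest adjusted p of any subunit in that group (limma adjusted p = 0.0642). The difference between the groups was -0.34 ± 0.14 (limma adjusted p = 0.915). A p above the threshold does not show that the groups were alike.

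The comparison with AI asks whether pregnancies from a transferred embryo differ in this ratio from those after insemination. As deposited, the transferred mean minus AI was negative for 56 of 75 probes, with a median difference of -0.11 against -0.01 over all probes. None passed in that difference (against 1.06% of all probes), in SCNT minus AI (against 0.948%), in IVF-ET minus AI (against 0.0579%) or in the F test over the 3 groups (against 0.217%). At an unadjusted p under 0.05 there were 11 negative differences (14.7%, against 6.23%) and 2 positive ones (2.67%, against 5.87%), NDUFA1 and NDUFB1. The members positive in all 5 AI animals were COX6C, COX7C and NDUFB9 (4.0%, against 2.74%). The lowest difference was that of NDUFB9, at -0.65 ± 0.20 (limma adjusted p = 0.153), and the smallest p that of COX6C, at -0.41 ± 0.11 (0.101).

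Without SCNT replicate 5, NDUFB9 at -0.51 ± 0.12 and COX6C at -0.46 ± 0.10 passed in the transferred mean minus AI (limma adjusted p = 0.0285 and 0.0195), 2 of 75 (2.67%, against 2.88% of all probes). With the AI sign turned and all animals kept, 60 probes were negative with a median of -0.16. No subunit passed then, 0 of all 13818 probes did, and COX6C stood at -0.01 ± 0.11 (limma adjusted p = 0.998). A difference of either gene from AI thus depended both on the sign taken for AI and on 1 animal.

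**Figure D5:**
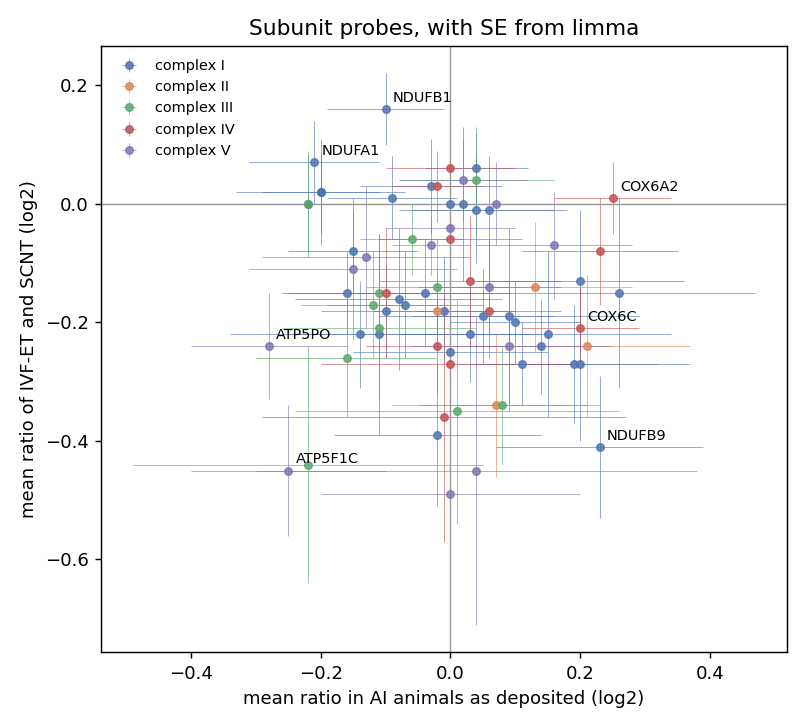
Each point is a subunit probe with its AI mean as deposited (horizontal) and its transferred mean (vertical), both log2 ratios, with standard errors from limma. Most points lie below the horizontal line at 0, while they spread evenly to both sides of the vertical one, with 40 negative and 35 positive in AI.

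Other genes of the mitochondrion were mixed. Over all probes tested 3.37% passed in the transferred mean, and for lists this short 1 call cannot be told apart from that share. Of 24 probes for assembly factors of the complexes, 1 passed on the negative side in the transferred mean, LRPPRC (-0.29 ± 0.07), which stabilises mitochondrial mRNA. Of 13 for electron, adenylate and porin carriers 1 passed there, VDAC3 (-0.28 ± 0.06), a pore of the outer membrane. Of 11 for proteins that shape the inner membrane 1 passed on the negative side, CHCHD3 (-0.38 ± 0.06), part of the cristae junction complex. Of 17 for the citric acid cycle and pyruvate dehydrogenase 3 passed: the isocitrate dehydrogenase IDH2 on the positive side (0.41 ± 0.07), and PDHB (-0.24 ± 0.06) and SUCLG1 (-0.26 ± 0.07) on the negative side. None of 13 for biogenesis or of 13 for redox defence passed. Of 30 probes for glycolysis 26 were negative, with a median of -0.26, and 6 passed on the negative side, 4 of them probes of PGK1 (from -0.46 to -0.41) and the others ALDOC and LDHB. In SCNT replicate 5 the median of the glycolysis probes was -1.24. Without that animal the median of the list's transferred means was -0.17 and 9 of 30 probes passed, against 5.38% of all probes. On the dye reading, 11 of the 30 glycolysis probes were negative, with a median of 0.04, and 1 passed (against 1.82% of all probes). Of the other lists in this paragraph only redox defence then had a call, with 1.

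Markers of other cell types also differed between the tissues in the same animals. The counts called below stand against 3.37% of all probes. Of 13 epithelial markers, 7 passed on the positive side of the transferred mean (CDH1, CGN, DSP, ESRP1, EZR, KRT8 and OCLN), and the median over the list lay between 0.29 and 0.81 in the 9 animals and between -0.63 and 0.27 in AI. Of 15 stromal fibroblast markers 7 passed on the negative side (COL1A1, COL1A2, COL3A1, COL6A3, DCN, SPARC and THY1), with animal medians from -0.91 to -0.17 in the 9 and from -0.03 to 0.61 in AI. Of 13 smooth muscle probes 2 passed on the negative side. None of the 9 endothelial, 12 leukocyte, 4 red cell, 15 trophoblast and 4 gland probes passed. The subunits lay on the side of the stromal list, by a smaller amount (median -0.15 against -0.62). Read as dye ratios, the medians of the epithelial and stromal lists in the transferred mean were -0.03 and 0.09. The part of the cell mixture in the subunit values was not tested.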

How the data were processed

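RNA of both tissues was hybridised together on arrays with Cy3 and Cy5, per the labels' protocols. The authors deposited log2 ratios, read here as already turned to the tissues; the base, channel order and normalisation are not given in the sources used here, and neither is signal over background. Adjacent duplicate spots were averaged (27648 spots to 13824 probes). Gene symbols came from the platform annotation: 8645 probes had 1 symbol, 105 several and 5074 none listed.

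Array medians were set to 0, a dye effect per probe (estimated over 14 animals) was taken off, and both arrays of each animal were averaged. Probes with a value in at least 4 of 5 AI and SCNT animals and 3 of 4 IVF-ET animals were tested. limma 3.58.1 (R 4.3.3) fitted group means, two-sided, with Benjamini-Hochberg adjustment and a threshold of 0.05. The limma fit was tested on simulated animal values, and the steps before it were not. Precision is limited by the number of animals. Per the labels, each group's arrays are numbered next to each other, so an effect of that order cannot be told apart from the group.

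Members, lists and tests were chosen with earlier results of these data known. Genes named were those past the threshold, those with the smallest p in each complex, those with 9 of 9 animals on 1 side, core subunits and isoform sets. NDUFB5, NDUFA5, NDUFA12 and COX7C, and lowest or highest members, were chosen after their values were seen.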

Additional observations from a re-analysis of the deposited data

Results flagged for a closer look

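Each group of each named subunit, and of the medians over the complexes and over all subunits (132 groups), was searched for an animal that stood far from the others, and 12 were found. The cut-off used has a chance rate of about 1 in 20 for a single group. Over all probes tested it marked 8.46% of groups, and in SCNT it marked 13.6%, against 17.3% of the 75 subunit probes. These groups are not independent, since the same animals recur in them. Of the 12, 9 were SCNT replicate 5. It lay below the other SCNT animals for NDUFA9 (-0.72), NDUFS7 (-2.10), SDHB (-1.56), CYC1 (-2.72), UQCRC1 (-2.46), COX4I1 (-2.79) and ATP5F1D (-3.39), and above them for UQCRB (0.55) and UQCRH (0.28). The others were NDUFA1 in AI replicate 5 (-0.69) and, in IVF-ET replicate 4, CYC1 above the other animals of its group (0.18) and COX6C below them (-0.49).

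In 3 cases every animal of one group lay on the other side of 0 from every animal of another. NDUFB9 was positive in 5 of 5 AI animals and negative in 4 of 4 IVF-ET animals, with a difference of means of -0.61, and in 5 of 5 SCNT animals, with a difference of -0.68. COX6C was positive in 5 of 5 AI animals and negative in 4 of 4 IVF-ET animals, with a difference of -0.53. Over all subunits this was 2 of 75 probes for AI against IVF-ET (2.67%, against 0.688% of all probes) and 1 of 75 for AI against SCNT (1.33%, against 0.564%). None of these differences passed in limma's test over all probes, and each rests on the AI sign as deposited.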

How the results depend on the processing

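Counts of called subunits depended on the setting. In the transferred mean (1 call, against 3.37% of all probes) they were 2 with values read as dye ratios (against 1.82%). They were 0 when IVF-ET replicate 3 entered with the sign of its second array changed (against 0.0%). With arrays scaled to 1 spread they were 6 (against 4.56%). With the first spot only, the second spot only or the print order trend removed they were 2. Over all probes 415, 433 and 555 were called in these 3 settings. With each animal left out in turn they were 0 to 9, where 153 to 743 of all probes were called. In SCNT (0 calls, against 1.82%) 1 was called with the second spot only, where 222 of all probes were. With scaled arrays 1 was called (against 2.49%). In AI (0 calls) 2 were called as dye ratios (against 2.62%). Over the 3 groups (0 calls) 9 of 75 were called as dye ratios (against 15.3%) and 1 with the AI sign turned (against 3.18%). With each animal left out 0 to 1 were called there, where 0 to 71 of all probes were. The transferred mean minus AI gave 0 to 2 calls with each animal left out, where 11 to 398 of all probes were called. Read as dye ratios, the median over the subunits was 0.005 in SCNT and 0.003 in the transferred mean; under the other settings run, the group medians moved by less than the SD between animals.

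Of the named genes, 25 results changed sign when read as dye ratios. These were ATP5F1C (0.01), NDUFA10 (0.03) and NDUFB9 (0.17) in the transferred mean; NDUFA8 (0.05) and COX6A2 (-0.08) in AI; NDUFS4 (0.22), NDUFS1 (0.09), COX6C (0.09), COX7A2L (0.08) and ATP5PO (0.01) in IVF-ET; NDUFA9 (0.10), SDHA (0.02), CYC1 (0.26), UQCRC1 (0.00), COX4I1 (0.16), COX5B (0.16) and ATP5F1D (0.08) in SCNT. In SCNT minus IVF-ET they were NDUFA9 (0.19), NDUFA2 (-0.03), SDHA (0.01), UQCRC1 (0.06), COX7A2L (-0.08), COX6C (-0.02), ATP5F1D (0.15) and ATP5E (-0.17). Turning the AI sign turned the 9 AI results by construction: NDUFA8 (0.20), NDUFA1 (0.21), SDHA (-0.21), UQCRH (0.16), UQCRB (0.12), COX6A2 (-0.25), COX6C (-0.20), ATP5PO (0.28) and ATP5F1C (0.25). Beyond this, the cause of these changes was not tested. No paired analysis was possible because the replicate numbers name different animals in each group.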
